A study of Homo sapiens and Homo sapiens
Mus with 12 samples.

Results

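Pseudogenes are copies of genes that lost, or are listed as having lost, the ability to make the protein of the gene they came from. The genes described here are the pseudogenes with counts in xenograft tumors of UM-UC-3 cells, a human bladder cancer line. They were the rows of the human count table of the tumors whose biotype contains the word pseudogene and whose mean was at least 10 counts over the 15 tumors. This rule kept 153 of the 3468 rows with such a biotype and of the 26813 genes listed. The members were thus selected on their measured level over all tumors together. PTMAP10 (mean 10 counts), ACP2 (10.1) and AP002982.1 (10.1) were just inside this limit, and AFG3L1P (9.8), RPL4P4 (9.8) and NSRP1P1 (9.73) were just outside it. A mean of at least 10 counts was reached within each of the 3 groups by 112 members, within 2 groups by 29 and within only 1 group by 12. Members that were kept through the groups in which they are high had to differ. Tests of such members use the counts that selected them.

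The tumors grew from UM-UC-3 cells that carried a lentiviral short hairpin RNA of the GIPZ type and had been sorted for GFP. shCtrl carried a control hairpin, and sh#1 and sh#2 carried hairpins with different target sequences against CDH11, which encodes a cell adhesion protein of the cadherin family. Each of the 3 was a transduced cell population, injected under the skin of 5-week-old male nude mice (BALB/cAJcl-nu/nu) in Matrigel, and tumors were taken at 4 weeks, with 5 tumors in each group. Nude mice lack a thymus and most T cells but keep other host cells, so mouse RNA was present in every tumor. Cultured cells of the same 3 populations had 3 libraries each.

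The tumors of a group were deposited as 1 mix, with all shCtrl tumors in the first, all sh#1 tumors in the second and all sh#2 tumors in the third. A difference between groups and a difference between mixes cannot be told apart in any tumor comparison here. In such bulk tumors, fewer cells with a transcript and less of it per cell cannot be told apart either. Human totals were 635024 to 1248977 counts in shCtrl, 414849 to 1011977 in sh#1 and 560630 to 1053107 in sh#2 tumors. sh#1 tumor 1 had the lowest human total and the highest mouse share, 30% of its human and mouse counts against a lowest share of 10.4%. CDH11 was lower in sh#1 than in shCtrl (1 to 9 against 5 to 32 counts per tumor, log2 fold change -1.67, SE 0.40, q = 0.026), and its log2 fold change in sh#2 was -0.73 (2 to 14 counts, q = 0.347). Of the epithelial and cancer cell markers, VIM, KRT18, KRT8 and CD44 had counts in every tumor, while KRT7, GATA3, UPK2 and KRT5 had 0 to 7. Labels do not say whether the tumors of a group came from separate cultures, so the tests measure the spread between tumors of 1 cell population each.

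Most pseudogenes in mammalian genomes are processed copies, made when a messenger RNA is copied back into DNA and inserted elsewhere in the genome. Abundant, short messages such as those of ribosomal proteins left many of them. Nuclear copies of mitochondrial genes arose in another way, by insertion of pieces of mitochondrial DNA into nuclear chromosomes. Because copies resemble their parent gene, a short read can fit more than 1 place, and the counts of a copy and its parent are uncertain wherever their letters are the same. The tool and the rule that assigned such reads in these tumors are not given in the sources used here.

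By biotype, 91 members were processed, 13 transcribed processed, 29 transcribed unprocessed, 6 unprocessed, 6 transcribed unitary and 8 polymorphic pseudogenes. A parent was given by the symbol for 87 members and by sequence for 47, and 19 had none. In all 77 members were copies of ribosomal protein genes, 8 were nuclear copies of mitochondrial genes and 68 were others. The members with a parent had 93 different parents, and 68 of them shared a parent with at least 1 other member. Identity to the parent over the aligned part ranged from 86 to 99.1% (median 96.8%) in the mitochondrial copies and from 77.8 to 100% (median 97.4%) in the ribosomal protein copies. The reads had 75 bases, and for the median ribosomal protein copy 19.4% of all stretches of 75 bases occurred letter for letter in a transcript of the parent.

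As a share of the human counts, all 153 members together held 1.47 to 1.55% in shCtrl, 1.23 to 1.57% in sh#1 and 1.24 to 1.45% in sh#2 tumors. Every sh#2 tumor lay below every shCtrl tumor, while the sh#1 tumors overlapped both. The ribosomal protein copies had 5.19 to 5.69, 5.26 to 5.64 and 5.38 to 5.69 counts for every 100 counts of the ribosomal protein genes. The ratio of copies to genes was thus in nearly the same range in the 3 groups. For the mitochondrial copies, the counts for every 100 counts of the mitochondrial DNA genes were 3.1 to 3.73 in shCtrl, 1.48 to 3.47 in sh#1 and 1.67 to 3.1 in sh#2. The lowest sh#1 value was that of sh#1 tumor 1, and the other 4 were at 3.13 to 3.47. MT-RNR2 and MT-RNR1, the mitochondrial ribosomal RNA genes, are counted among the mitochondrial DNA genes. In sh#1 tumor 1, MT-RNR2 had 98115 CPM (30565 to 47251 in the rest of the group) and MT-RNR1 had 23180 (3299 to 4175). In sh#2, MT-RNR2 had 107660 CPM in tumor 2 and 90291 in tumor 5, whose ratios were the lowest of that group (1.67 and 2.34), against 39518 to 49499 CPM in the others, whose ratios were 2.49 to 3.1. The following comparisons ask how single copies behaved within these sums in the 3 groups. The sh#1 and sh#2 tumors are named knockdown tumors after their hairpins, although CDH11 was not called lower in sh#2. Levels are normalized counts scaled to 1000000 human counts per tumor (CPM). Calls need q below 0.1, where q is the Benjamini-Hochberg adjusted p of the quasi-likelihood test of edgeR over the 9184 genes tested.

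In sh#1 against shCtrl, 13 members were higher and 21 lower, 8.5% and 13.7% of the 153. Over all genes tested, 0.773% were higher and 0.708% lower. For sh#2 against shCtrl, 14 members were higher and 25 lower (9.15% and 16.3%), where 1.36% and 1.32% of all genes were. Between the hairpins, 16 members were higher in sh#1 and 8 were higher in sh#2 (10.5% and 5.23%), beside 0.642% and 0.544% of all genes. The first and second of these comparisons share the shCtrl tumors. Of the 112 members whose mean reached 10 counts in each group, 7 were higher and 10 lower in sh#1, 7 higher and 14 lower in sh#2, and 7 higher and 3 lower between the hairpins.

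The calls lay mostly among the ribosomal protein copies, 37 of which passed the test in at least 1 comparison, against 3 of the 8 mitochondrial copies and 10 of the 68 others. The share of all genes tested that passed in at least 1 comparison is not given here. In a single comparison, at most 1.36% of all genes were higher and at most 1.32% lower. Those ribosomal protein copies were higher in 13 and lower in 15 cases in sh#1, higher in 12 and lower in 17 in sh#2, and higher in 13 and lower in 7 in sh#1 against sh#2. Parent genes had fewer calls. Of the 93 parents 80 passed the low-count filter, and 1 was higher and 2 lower in sh#1, 1 higher and 8 lower in sh#2, and 4 higher and 0 lower between the hairpins. Of the 81 ribosomal protein genes tested, 1 was higher and 1 lower in sh#1, 0 higher and 12 lower in sh#2, and 12 higher and 0 lower in sh#1 against sh#2. The 15 genes of mitochondrial DNA gave 1 higher gene in each hairpin comparison and no call between the hairpins.

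**Figure D1:**
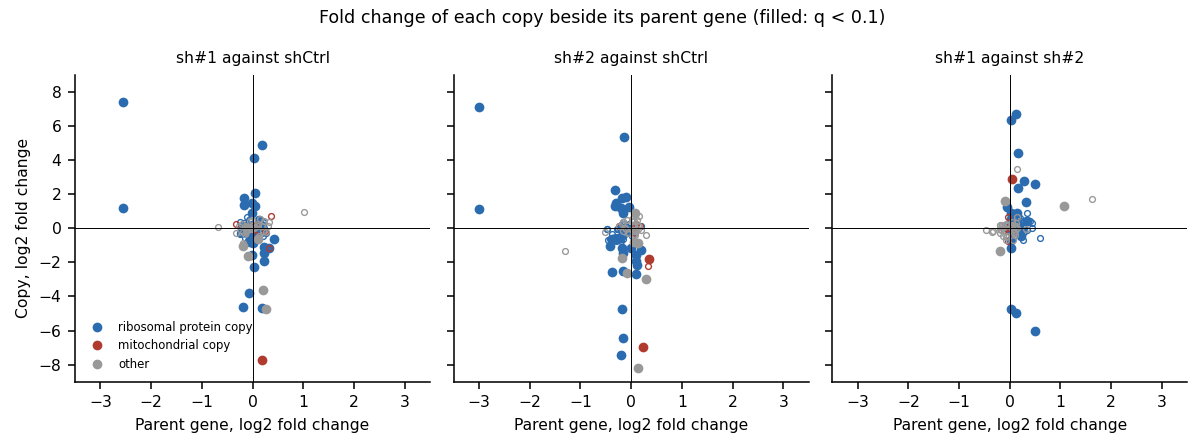
Log2 fold change of each copy (vertical axis) beside that of its parent gene (horizontal axis) in the 3 tumor comparisons, for copies whose parent was tested. Points are copies, filled where q was below 0.1 and coloured by class. Filled points spread along the vertical axis from -8.18 to 7.41, where -8.18 is the fitted value of EEF1A1P9 with 0 counts in all sh#2 tumors and depends on the prior count, while the parents lie between -1.30 and 1.63 except RPL36A, at -2.56 in sh#1 and -3.0 in sh#2 against shCtrl.

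MTCYBP35 (ENSG00000251340) is a nuclear copy of MT-CYB, the mitochondrial gene of cytochrome b, the central subunit of respiratory complex III. It lies at chr5:94569540-94570676 on the plus strand of hg38, is 86% identical to MT-CYB, and shares no stretch of 75 bases letter for letter with it. The stretch where the pair differs most within the coding sequence is shown to let the letters that separate their reads be seen. It covers chrM:15400-15474 in MT-CYB and chr5:94570193-94570267 in MTCYBP35, both on the plus strand, and capitals mark the 18 bases in which the copy differs.
MT-CYB: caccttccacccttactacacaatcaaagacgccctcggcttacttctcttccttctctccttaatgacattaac
MTCYBP35: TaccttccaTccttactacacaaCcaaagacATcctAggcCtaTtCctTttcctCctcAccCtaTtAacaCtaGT

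MTCYBP35 had 116, 70, 57, 125 and 39 counts in the 5 shCtrl tumors. In the sh#1 tumors it had 0, 0, 0, 0 and 1, and in the sh#2 tumors 1, 0, 1, 0 and 0. The counts were present in every shCtrl tumor and all but missing from both knockdown groups, with no overlap. Normalized levels were 80.9 ± 21.2 CPM (SD, n = 5) in shCtrl, 0.202 ± 0.452 in sh#1 and 0.476 ± 0.672 in sh#2. The log2 fold change was -7.72 in sh#1 (SE 0.43, q = 3.91e-16) and -6.98 in sh#2 (SE 0.40, q = 6.54e-16). With so few counts left, the ratio of shCtrl to sh#1 was 346, with an exact 95% counting interval of 61.7 to 13686, and that of shCtrl to sh#2 was 167 (45.9 to 1381). Such intervals cover counting error only. MTCYBP35 became a member through its shCtrl tumors alone, so its tests use the counts that selected it. Its parent MT-CYB had 9965 ± 1063 CPM in shCtrl, 11366 ± 1343 in sh#1 and 11681 ± 1720 in sh#2, with log2 fold changes of 0.19 (q = 0.473) and 0.23 (q = 0.28).

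MTND6P3 is the next copy to MTCYBP35, 69 bases away at chr5:94568929-94569470 on the minus strand, a copy of MT-ND6, a complex I subunit gene that in mitochondrial DNA also lies beside MT-CYB. It had 189, 185, 174, 175 and 175 CPM in shCtrl tumors, 77.7, 165, 191, 174 and 174 in sh#1 and 145, 192, 211, 222 and 222 in sh#2. The groups overlapped, and its log2 fold changes were -0.16 (SE 0.15, q = 0.733) and 0.14 (SE 0.14, q = 0.725). MTND6P3 thus had counts in all the tumors in which MTCYBP35 had next to none. sh#1 tumor 1 had the lowest value of MTND6P3.

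Another 4 mitochondrial copies lie within 5315 bases of chromosome 1, from 629062 to 634376 on the plus strand of hg38, in the order MTND1P23, MTCO1P12, MTCO2P12 and MTATP6P1. They copy genes of complex I (MT-ND1), of complex IV (MT-CO1, its catalytic subunit, and MT-CO2) and of ATP synthase (MT-ATP6). MTCO1P12 was the only one of these with a called difference. It had 938, 852, 937, 848 and 847 CPM in shCtrl, 874, 270, 307, 299 and 283 in sh#1 and 267, 169, 243, 245 and 340 in sh#2. All sh#2 tumors lay below all shCtrl tumors, and so did every sh#1 tumor but tumor 1. The log2 fold change was -1.81 in sh#2 (SE 0.31, q = 0.00998) and -1.18 in sh#1 (SE 0.30, q = 0.111). Without sh#1 tumor 1, the tumor with the highest mouse share, it was -1.60 in sh#1 with q = 1.99e-11. With all tumors and the mouse to human ratio as a covariate it was -1.47 (q = 0.0081). DESeq2 called the fall in sh#1 also with that tumor in (log2 fold change -1.13, q = 0.0272).

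The parent MT-CO1 had 3758 ± 289 CPM in shCtrl, 4724 ± 237 in sh#1 and 4820 ± 816 in sh#2. All knockdown tumors lay above all shCtrl tumors, with log2 fold changes of 0.33 (q = 0.109) and 0.36 (q = 0.0515, which passed the limit). Counts of MTCO1P12 were 17.5 to 20.4% of those of MT-CO1 and the copy together in shCtrl, 5.55 to 14.9% in sh#1 and 2.95 to 5.72% in sh#2 (shares of counts, not corrected for length). Summed, the pair was not called, with log2 fold changes of 0.14 (q = 0.624) and 0.12 (q = 0.626).

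Of the neighbours of MTCO1P12, MTCO2P12 begins 140 bases after its end and had 35.8 ± 4.76 CPM in shCtrl, 25.7 ± 7.03 in sh#1 and 30.2 ± 6.69 in sh#2. MTATP6P1 follows with 626 ± 118, 675 ± 132 and 737 ± 107 CPM. MTND1P23, the member with the highest mean count, had 1618 ± 159, 1933 ± 597 and 1810 ± 351 CPM. Their groups overlapped, and their q ranged from 0.41 for MTCO2P12 in sh#1 to 0.916 for MTND1P23 between the hairpins. MTND1P23 passed the test in sh#1 only when sh#1 tumor 1 was left out (log2 fold change 0.43, q = 0.0854, against 0.26 and q = 0.672 with it). Copies that lie close to each other thus gave different results.

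The remaining mitochondrial copies were MTND5P11 and MTCO2P2. MTND5P11 (chr5:134924648-134926459, minus strand) copies a complex I gene and had 14.4, 20.6, 52.4, 18.7 and 1.53 CPM in shCtrl, 58.3, 32.8, 37.1, 26.1 and 32.3 in sh#1 and 1.42, 10.7, 3.83, 3.2 and 3.82 in sh#2. The sh#1 tumors lay above all sh#2 tumors, and the shCtrl tumors overlapped both. Between the hairpins the log2 fold change was 2.91 (SE 0.62, q = 0.0579), and the call was lost without any 1 of 6 tumors (q = 0.102 to 0.148). Against shCtrl, its log2 fold changes were 0.69 in sh#1 (q = 0.605) and -2.22 in sh#2 (q = 0.126). Without shCtrl tumor 3 both were called (1.26, q = 0.0537, and -1.66, q = 0.0816), and the one in sh#2 was also called without shCtrl tumor 5 (-2.46, q = 0.00554), by DESeq2 (-2.24, q = 0.0478) and with no filter on low counts (-2.26, q = 7.53e-05). MTCO2P2 had 339 ± 22.8 CPM in shCtrl, 391 ± 54.4 in sh#1 and 385 ± 50 in sh#2, and q was 0.478 or above in each comparison.

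**Figure D2:**
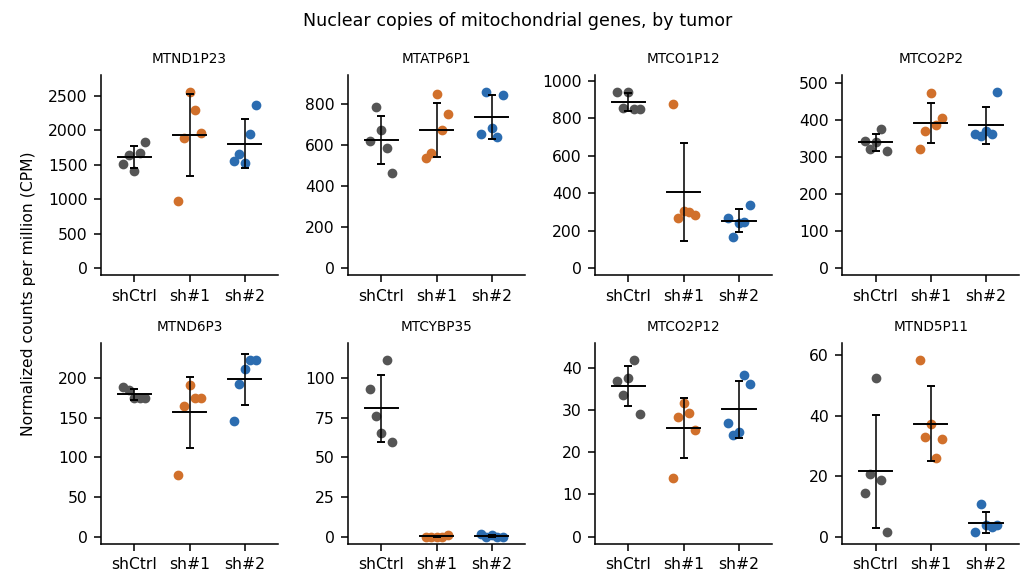
Levels of the 8 nuclear copies of mitochondrial genes in CPM (linear vertical axes that include 0) in the shCtrl, sh#1 and sh#2 tumors, 1 point per tumor with the group mean and SD (n = 5). MTCYBP35 is at 59.7 to 111 CPM in shCtrl and at most 1.42 elsewhere, MTCO1P12 is lower in all sh#2 tumors and in 4 of 5 sh#1 tumors, and the other copies overlap shCtrl.

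RPL36A (chrX:101390824-101396155, plus strand) encodes a protein of the large ribosomal subunit. This parent gene had 225, 206, 266, 254 and 231 CPM in shCtrl, 33.3, 48.6, 35, 37 and 43.4 in sh#1 and 25.6, 30.9, 25.9, 38.4 and 24.8 in sh#2. All knockdown tumors lay far below all shCtrl tumors, with log2 fold changes of -2.56 (SE 0.14, q = 3.91e-16) and -3.0 (SE 0.15, q = 1.89e-17). Its copies AC116533.1 (named RPL36AP37 in GENCODE v44, ENSG00000244398, chr11:16974693-16975013, minus strand) and AC018868.1 (RPL36AP8, ENSG00000231409, chr15:34943080-34943394, plus strand) moved the opposite way. The stretch chosen, as for the families after it, was the one of 75 coding bases without gaps in which the copies differ most from the parent, to show the letters that tell their reads apart. It covers positions 210 to 284 of the coding sequence of RPL36A in transcript ENST00000427805.6, and positions in other transcripts of the gene may differ. In the copies it covers chr11:16974838-16974912 in AC116533.1 and chr15:34943181-34943255 in AC018868.1, each written on the strand of its gene. Capitals mark the 3 bases in which AC018868.1 differs from RPL36A, and AC116533.1 does not differ here or in any other stretch of 75 bases.
RPL36A: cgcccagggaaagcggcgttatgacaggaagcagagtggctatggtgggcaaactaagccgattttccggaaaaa
AC116533.1: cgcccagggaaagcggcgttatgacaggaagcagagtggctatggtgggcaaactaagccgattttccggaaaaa
AC018868.1: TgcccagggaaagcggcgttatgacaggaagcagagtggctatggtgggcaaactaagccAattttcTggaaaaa

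AC018868.1 had 0, 1, 1, 0 and 0 counts in shCtrl tumors, 27, 89, 78, 100 and 102 in sh#1 and 51, 46, 96, 67 and 47 in sh#2. It was all but missing from shCtrl and present in every knockdown tumor. Log2 fold changes were 7.41 in sh#1 (SE 0.35, q = 2.56e-18) and 7.11 in sh#2 (SE 0.36, q = 2.39e-17). The ratio to shCtrl was 233 in sh#1 (95% counting interval 64.1 to 1932) and 187 in sh#2 (51.4 to 1554). AC116533.1 rose from 95.5, 88.7, 103, 82.7 and 87.3 CPM to 172, 198, 205, 216 and 229 in sh#1 and 196, 193, 196, 196 and 218 in sh#2. Its groups did not overlap with shCtrl, with log2 fold changes of 1.17 (SE 0.12, q = 4.35e-09) and 1.13 (SE 0.12, q = 1.23e-08).

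Summed with both copies, RPL36A had 329 ± 27.6 CPM in shCtrl, 337 ± 38.1 in sh#1 and 306 ± 18.1 in sh#2. The sum thus differed by less than the spread between tumors (log2 fold change 0.05, q = 0.917, and -0.10, q = 0.749). RPL36A itself held 69.6 to 75.5% of these counts in shCtrl, 10.2 to 14% in sh#1 and 7.47 to 12.5% in sh#2. In cultured cells, whose table lists RPL36A, neither copy was found by its symbol AC116533.1 or AC018868.1, and their later names were not searched. RPL36A had 2384 ± 58.6 CPM (n = 3) in cultured shCtrl cells, 2872 ± 121 in sh#1 and 3645 ± 144 in sh#2. There it was higher by 0.27 in sh#1 (SE 0.05, q = 0.000145) and by 0.61 in sh#2 (SE 0.05, q = 5.45e-14) on the log2 scale, and the difference between tumors and cultured cells was not tested. The cultured reads were trimmed in CLC Genomics Workbench and mapped with RaNAseq.

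Copies of RPL21, RPS26 and RPS2 had patterns that separated the hairpins. RPL21 is a protein of the large subunit, and RPS26 and RPS2 are proteins of the small one. For RPL21, the stretch printed holds 2 differing bases in each of RPL21P119 (ENSG00000220793, chr16:9156402-9156881, minus strand) and AL592114.1 (RPL21P19, ENSG00000219133, chr1:204346776-204347258, minus strand), at different places. It covers positions 6 to 80 of the coding sequence, chr16:9156802-9156876 and chr1:204347179-204347253, with the differing bases in capitals.
RPL21: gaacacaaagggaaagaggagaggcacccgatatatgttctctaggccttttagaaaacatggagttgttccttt
RPL21P119: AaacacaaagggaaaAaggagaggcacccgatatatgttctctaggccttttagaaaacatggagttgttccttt
AL592114.1: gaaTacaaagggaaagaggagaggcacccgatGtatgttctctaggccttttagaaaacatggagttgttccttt

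RPL21P119 had 158, 170, 189, 120 and 126 CPM in shCtrl, 83.2, 120, 62.6, 80.5 and 112 in sh#1 and 2.84, 0, 0.958, 0 and 0 in sh#2. It was present in shCtrl and sh#1 tumors and nearly missing from all sh#2 tumors. The log2 fold change was -0.73 in sh#1 (SE 0.17, q = 0.022) and -7.40 in sh#2 (SE 0.37, q = 1.89e-16), a ratio of shCtrl to sh#2 of 201 (95% counting interval 68.6 to 978). AL592114.1 had 77.8, 75.7, 61.6, 62.3 and 44.4 CPM in shCtrl, 5.55, 9.04, 4.24, 1.09 and 4.04 in sh#1 and 129, 118, 154, 175 and 164 in sh#2. This copy was low in sh#1 and highest in sh#2, with no overlap between any of the groups. Against shCtrl it changed by -3.77 in sh#1 (SE 0.28, q = 1.02e-12) and by 1.18 in sh#2 (SE 0.16, q = 3.98e-06). RPL21P16, a copy identical to RPL21 over its whole aligned length, had 265 ± 25.7, 247 ± 15.7 and 238 ± 34.9 CPM, and RPL21 itself 1182 ± 77, 1119 ± 84.8 and 1030 ± 105, with no call for either.

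The copies of RPS26 also differed between the hairpins. The stretch covers positions 136 to 210 of the coding sequence, chr1:58056271-58056345 on the minus strand in RPS26P15 (ENSG00000223416) and chr17:45608706-45608780 on the plus strand in RPS26P8 (ENSG00000204652), which differ from RPS26 there by 1 and 2 bases.
RPS26: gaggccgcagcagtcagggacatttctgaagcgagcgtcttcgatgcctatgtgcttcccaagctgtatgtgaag
RPS26P15: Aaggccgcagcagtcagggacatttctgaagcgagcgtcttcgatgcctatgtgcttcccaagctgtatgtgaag
RPS26P8: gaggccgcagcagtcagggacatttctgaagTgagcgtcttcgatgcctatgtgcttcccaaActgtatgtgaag

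RPS26P15 had 36, 18, 20, 18 and 16 counts in shCtrl, 0, 1, 0, 1 and 1 in sh#1 and 46, 34, 49, 67 and 26 in sh#2. It was nearly missing from sh#1 tumors and highest in sh#2. Its log2 fold change was -4.68 in sh#1 (SE 0.45, q = 1.65e-09) and 1.32 in sh#2 (SE 0.20, q = 4.18e-05), and the ratio of shCtrl to sh#1 was 30.6 (95% counting interval 10.2 to 151). RPS26P8 had 2, 1, 1, 1 and 0 counts in shCtrl, 14, 30, 25, 30 and 41 in sh#1 and 1, 2, 5, 11 and 3 in sh#2. Every sh#1 tumor lay above all others. The log2 fold change was 4.87 in sh#1 (SE 0.42, q = 1.06e-10) and 2.27 in sh#2 (SE 0.60, q = 0.0416), the latter lost without shCtrl tumor 4 (q = 0.107) or without sh#2 tumor 4 (q = 0.229). RPS26P8 became a member through its sh#1 tumors alone, so its tests use the counts that selected it. RPS26 had 837 ± 73.6, 947 ± 90.5 and 673 ± 46.3 CPM and was called only between the hairpins (log2 fold change 0.49, q = 0.00595).

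AC107956.1 (ENSG00000197149, chr11:17228279-17229151, plus strand) is a copy of RPS2 that shares no stretch of 75 bases with it. The stretch with the most differing bases, 7, covers positions 101 to 175 of the coding sequence of RPS2 and chr11:17228370-17228444 in the copy.
RPS2: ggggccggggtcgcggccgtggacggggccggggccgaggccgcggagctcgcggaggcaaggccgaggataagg
AC107956.1: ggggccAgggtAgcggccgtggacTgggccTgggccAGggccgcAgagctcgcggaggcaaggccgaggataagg

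AC107956.1 had 285, 221, 269, 266 and 208 CPM in shCtrl, 250, 301, 187, 253 and 221 in sh#1 and 1.42, 2.69, 0.958, 4.27 and 5.73 in sh#2. shCtrl and sh#1 tumors overlapped, and all sh#2 tumors lay far below both. The log2 fold change was -0.05 in sh#1 (SE 0.13, q = 0.921) and -6.42 in sh#2 (SE 0.25, q = 4.07e-21). Another RPS2 copy, RPS2P5, had 334 ± 63 CPM in shCtrl, 262 ± 20.8 in sh#1 and 430 ± 13 in sh#2, and was called between the hairpins (log2 fold change -0.71, q = 0.000312). Against shCtrl it was called only with a tumor or genes left out, as in sh#1 without shCtrl tumor 5 (-0.43, q = 0.0343, against -0.35 and q = 0.173 with it) and in sh#2 without shCtrl tumor 3 (0.43, q = 0.072, against 0.36 and q = 0.115). RPS2 had 3305 ± 518, 2984 ± 182 and 2933 ± 197 CPM, with q of 0.456 or above.

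**Figure D3:**
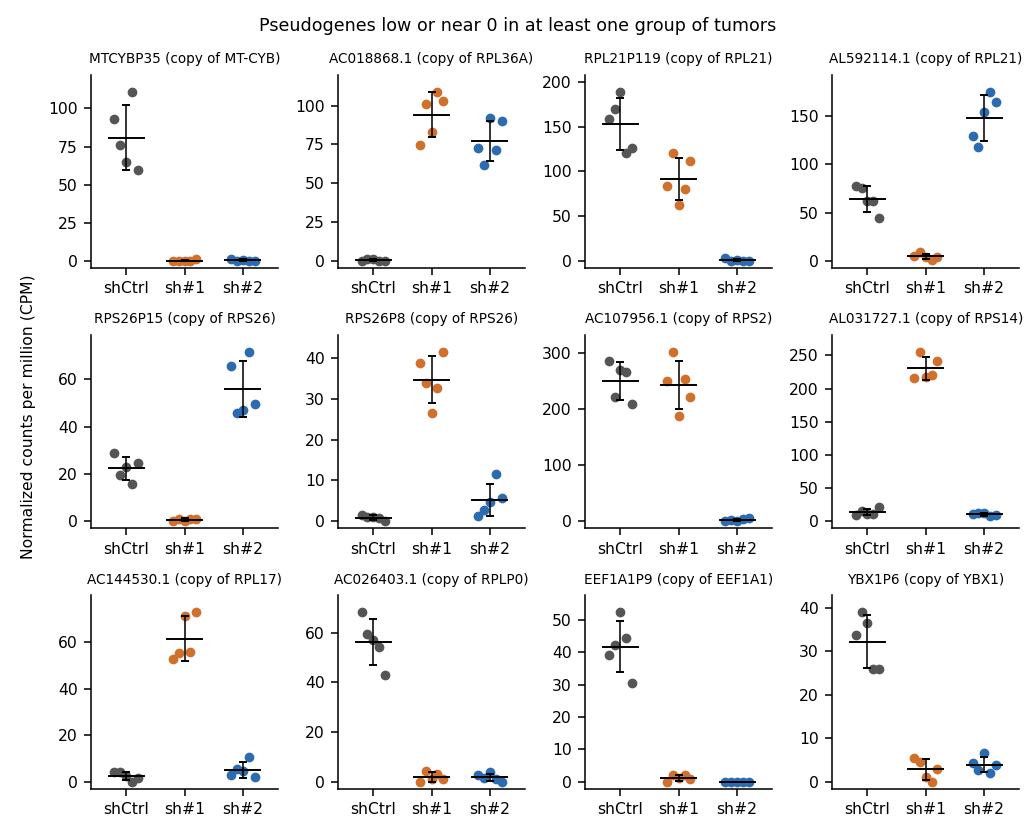
Levels in CPM (linear vertical axes that include 0) of 12 copies that were low or near 0 in at least 1 group, in the shCtrl, sh#1 and sh#2 tumors, 1 point per tumor with the group mean and SD (n = 5). In each panel the tumors of a group lie together, such as AC018868.1 at 61.8 to 109 CPM in the knockdown tumors and at most 1.14 in shCtrl.

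Further copies were high in 1 group and low in the other two. AL031727.1 (ENSG00000226396, chr1:19608114-19608568, plus strand), a copy of RPS14 of the small subunit, had 9.63, 16.2, 11.4, 11.6 and 21.4 CPM in shCtrl, 216, 255, 218, 220 and 242 in sh#1 and 11.4, 12.1, 12.5, 7.47 and 9.55 in sh#2. It stood out in sh#1 alone, with a log2 fold change of 4.09 against shCtrl (SE 0.17, q = 6.93e-20) and 4.43 against sh#2 (SE 0.18, q = 3.34e-20). AC026403.1 (RPLP0P9, ENSG00000229119, chr5:166382305-166382599, plus strand), a copy of the ribosomal stalk gene RPLP0, had 85, 55, 50, 61 and 28 counts in shCtrl, 0, 4, 1, 3 and 1 in sh#1 and 2, 1, 4, 1 and 0 in sh#2. Only shCtrl tumors held it at a level, with log2 fold changes of -4.61 (SE 0.33, q = 7.06e-13) and -4.73 (SE 0.34, q = 5.01e-13). AC026403.1 became a member through these shCtrl tumors alone, so its tests use the counts that selected it. Parents RPS14 and RPLP0 had no call, with fold changes between -0.19 and 0.16 on the log2 scale in the 3 comparisons.

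Others moved by smaller steps, without coming near 0. RPL13A, a protein of the large subunit, had a pair of copies that went in opposite directions. RPL13AP25 (chr13:54440704-54441315, minus strand) rose from 411, 366, 428, 398 and 392 CPM to 655, 758, 718, 750 and 820 in sh#1 and 715, 641, 734, 716 and 831 in sh#2. RPL13AP20 (chr12:12875499-12876107, plus strand) fell from 368, 308, 374, 283 and 305 CPM to 97.1, 116, 97.6, 109 and 118 in sh#1 and 37, 41.6, 80.5, 76.8 and 38.2 in sh#2. Neither copy overlapped between shCtrl and a knockdown group. Log2 fold changes were 0.90 and 0.87 for RPL13AP25 (SE 0.10 each, q = 6.53e-08 and 1.54e-07) and -1.59 and -2.52 for RPL13AP20 (SE 0.15 and 0.16, q = 4.29e-09 and 2.57e-13). Together the 4 copies of RPL13A had 1002 ± 81.1, 1085 ± 92.6 and 1010 ± 88.5 CPM in the 3 groups, within the spread between tumors.

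A pair of other ribosomal protein copies rose in both knockdown groups. AC073861.1 (RPS18P5) rose from 133 ± 9.96 CPM to 334 ± 40.1 in sh#1 and 463 ± 39.5 in sh#2 (log2 fold changes 1.32 and 1.80, q = 1.49e-10 and 2.14e-14). RPL10P3 rose from 16.8 ± 8.06 to 54.6 ± 13.4 and 57.3 ± 4.58 (1.79 and 1.82, q = 6.75e-06 and 4.1e-06). Their parents, RPS18 of the small and RPL10 of the large subunit, were not called. AC007969.1 (RPS15P4) fell from 518 ± 47.9 to 282 ± 33.6 and 235 ± 29.5 CPM (-0.88 and -1.13, q = 2e-06 and 7.22e-09), and RPL7AP6 fell from 136 ± 5.96 to 49.7 ± 2.12 and 44.6 ± 7.44 (-1.45 and -1.58, q = 8.36e-10 and 9.45e-11). In none of these did a knockdown tumor overlap with shCtrl. RPS7P11 had 6.44 ± 2.41, 29.2 ± 10 and 15.1 ± 7.19 CPM, was called in sh#1 (2.07, q = 6.63e-05) and in sh#2 (1.27, q = 0.0591), and lost the latter call without shCtrl tumor 4 (q = 0.181), sh#2 tumor 1 (q = 0.11) or sh#2 tumor 3 (q = 0.27) and with the mouse to human ratio as a covariate (1.21, q = 0.122). RPL10P16 had 199 ± 24.9 CPM in shCtrl, 509 ± 69.1 in sh#1 and 216 ± 21.4 in sh#2, so that sh#1 was higher than shCtrl (1.35, q = 1.2e-10) and higher than sh#2 (1.24, q = 1.52e-09).

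The ribosomal protein copies with the highest counts included ones that did not pass the test. AP001324.1, a copy of RPS12, had 707 ± 91.8 CPM in shCtrl, 681 ± 56.6 in sh#1 and 650 ± 52.7 in sh#2. RPS3AP47 had 412 ± 17.4, 455 ± 32.6 and 431 ± 19.8 CPM. The tumors of the 3 groups overlapped for both, and q was 0.596 or above.

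For a few families the copies and not the parent held the counts in tumors. RPL17, of the large subunit, had 1 to 7 counts in any tumor, too few to be tested, while its 3 copies summed to 96.4 ± 12.3 CPM in shCtrl, 171 ± 23.2 in sh#1 and 104 ± 17.8 in sh#2. In cultured cells RPL17 had 1661 ± 68 CPM in shCtrl. Among its copies, AC144530.1 (RPL17P18) had 5, 4, 2, 0 and 1 counts in shCtrl, 19, 49, 67, 51 and 72 in sh#1 and 2, 4, 5, 10 and 1 in sh#2, so that only sh#1 was high (log2 fold change 4.57, SE 0.33, q = 6.34e-13). AC144530.1 became a member through these sh#1 tumors alone, so its test uses the counts that selected it. BX679664.3 (RPL17P7) rose in both, from 8.72 ± 3.23 to 30.8 ± 7.86 and 25.3 ± 6.2 CPM (1.79 and 1.52, q = 4.46e-05 and 0.0012), and the sum of parent and copies rose by 0.80 in sh#1 (q = 0.000801). EEF1G, a subunit of the translation elongation factor 1 complex, had 0 or 1 count per tumor, while its copy AC008038.1 had 35.7 ± 6.81, 37.5 ± 6.75 and 31 ± 10.4 CPM with no call, and EEF1G had 1202 ± 24 CPM in cultured shCtrl cells. Levels in tumors and cultured cells come from tables made separately.

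Over all 93 parents, 26 had a called copy in sh#1, 31 in sh#2 and 19 between the hairpins. Parents with several copies had more chances of a called one, so these counts have no matching share over all genes. When parent and copies were summed before the fit, 3, 4 and 4 of those families were called. The median absolute log2 fold change of the called copies was 1.60, 1.67 and 1.82, and that of the sums of their families was 0.17, 0.16 and 0.21. A copy with a small share of the counts of its family cannot move the sum far, so these values are a description. Over all 93 families 3, 7 and 6 sums were called. These counts were 5, 13 and 10 without shCtrl tumor 5, and the count in sh#2 was 0 without sh#2 tumor 2. With all tumors, 2.15% of the sums were higher and 1.08% lower in sh#1, beside 0.773% and 0.708% of all genes tested singly. In sh#2 these shares were 0% and 7.53%, beside 1.36% and 1.32% of all genes. Between the hairpins they were 5.38% and 1.08%, beside 0.642% and 0.544%. Within the same comparison, at least 1 called copy was higher and another lower in 3 families in sh#1 (RPL13A, RPS18 and RPS26), in 2 in sh#2 (RPL13A and RPL21) and in 3 between the hairpins (RPL21, RPS2 and RPS26).

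**Figure D4:**
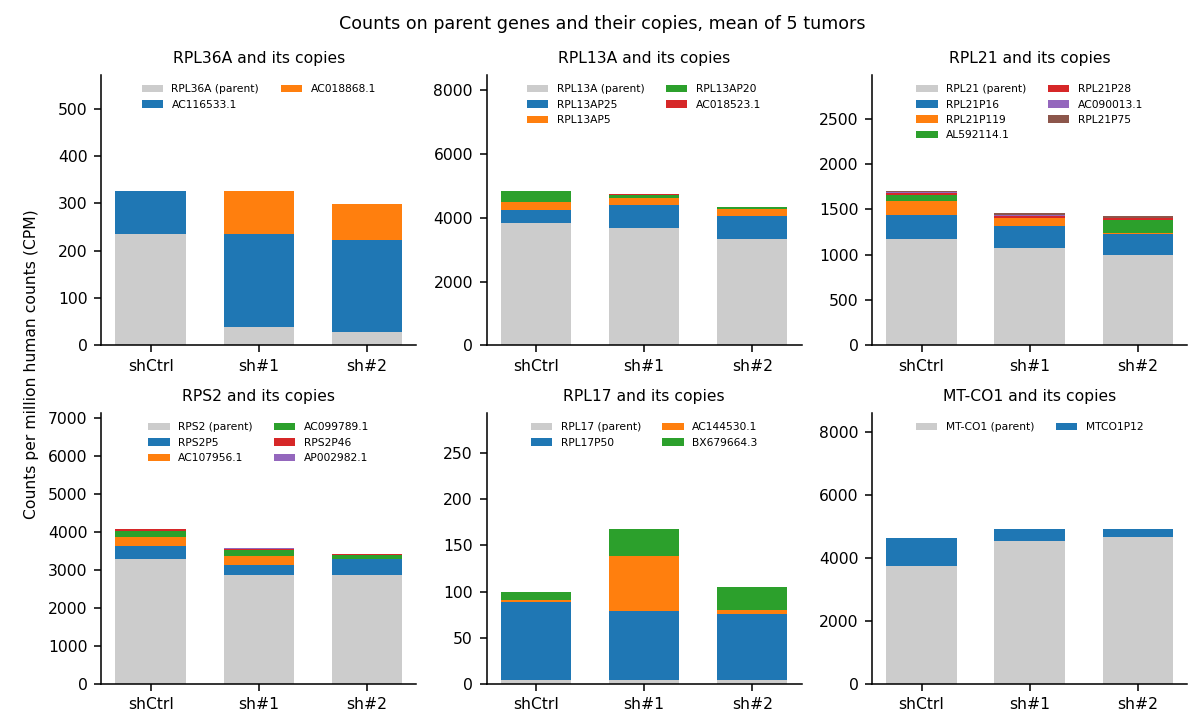
Counts scaled to 1000000 human counts (vertical axis, linear from 0, not scaled by the TMM factors) of 6 parent genes (grey) and their copies (colours), stacked, as the mean of the 5 tumors of each group. RPL36A was 69.6 to 75.5% of its stack in the shCtrl tumors and 7.47 to 14% in the knockdown tumors, and the height of its stack differed less than its parts.

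The share of called copies was also counted by closeness to the parent, with no test of a difference. The share of all genes called in at least 1 comparison is not given here, so these shares stand only beside each other. Of the copies with no stretch of 75 bases in a transcript of the parent, 13 of 38 (34.2%) were called in at least 1 comparison. Where over 0 and up to 50% of stretches occurred in the parent, 27 of 70 (38.6%) were called, and where over 50% did, 9 of 25 (36%). Among the ribosomal protein copies alone these shares were 9 of 21 (42.9%), 20 of 35 (57.1%) and 8 of 21 (38.1%), and among the others 3 of 14 (21.4%), 5 of 30 (16.7%) and 1 of 4 (25%). The 37 called ribosomal protein copies had a median identity of 97.5%, and the 40 others had 97.3%. The median share of stretches of 75 bases that occurred in the parent was 20.3% in the called copies and 10.7% in the others. The medians of the mean counts of their parents were 1407 and 1582. The members lie on 22 chromosomes, with 17 on chromosome 1, the most on any.

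Among the 68 other members, EEF1A1P9 (ENSG00000249264, chr4:105484698-105486080, plus strand) showed the largest change. It copies EEF1A1, the factor that brings amino acid carrying tRNA to the ribosome. Its counts were 49, 39, 46, 50 and 20 in shCtrl, 0, 2, 1, 2 and 1 in sh#1 and 0 in all 5 sh#2 tumors. Every shCtrl tumor lay above every knockdown tumor, with a log2 fold change of -4.72 in sh#1 (SE 0.37, q = 3.38e-11) and q = 1.29e-12 in sh#2. Set against a floor of 3 counts over the sh#2 group, it was at least 55.7-fold higher in shCtrl. EEF1A1P9 became a member through its shCtrl tumors alone, so its tests use the counts that selected it. EEF1A1 had 1443 ± 77.5, 1736 ± 134 and 1575 ± 150 CPM (q = 0.201 and 0.599). YBX1P6, a copy of the gene of the nucleic acid binding protein YB-1, had 33.7, 38.9, 36.5, 25.8 and 26 CPM in shCtrl, 5.55, 4.52, 1.06, 0 and 3.03 in sh#1 and 4.27, 2.69, 6.7, 2.13 and 3.82 in sh#2. It was low in all knockdown tumors (log2 fold changes -3.64 and -2.96, q = 8.46e-09 and 1.54e-07), and YBX1 was not called. YBX1P6 too became a member through its shCtrl tumors alone.

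The other calls in this class were few. In sh#1 the 5 lower members were AC138207.8, EEF1A1P9, EIF5P1, YBX1P6 and PTMAP10, and no member was higher. In sh#2 the 6 lower members were AC138207.8, EEF1A1P5, EEF1A1P9, EIF5P1, YBX1P6 and PTMAP10, and VEGFA and AC098614.3 (a copy of TPM4) were higher. BNIP3P1 and EIF5P1 were higher in sh#1 than in sh#2. EIF5P1, a copy of an initiation factor gene, went from 27.2 ± 6.25 CPM in shCtrl to 13.5 ± 6.54 in sh#1 and 4.14 ± 2.68 in sh#2 (-1.04 and -2.65, q = 0.0708 and 3.52e-06). HMGB1P6, a copy of the gene of the chromatin protein HMGB1, had 16.4 ± 4.72, 9.39 ± 3.31 and 22.9 ± 8.98 CPM and was called between the hairpins (-1.31, SE 0.32, q = 0.0439), a call lost without sh#1 tumor 5 (q = 0.168) or sh#2 tumor 2 (q = 0.224). TMSB4XP4, a copy of the thymosin beta 4 gene, had 142 ± 30.6, 142 ± 31.5 and 155 ± 23.3 CPM in the 3 groups, which overlapped.

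By name and by a later annotation, 9 members are functional genes. GENCODE v44 lists LDHB, MDH1, GPX1, AMD1, VEGFA, BRI3BP, SACM1L, ACP2 and NBPF8 as protein coding, so their biotype in the deposited table does not describe a copy. Those with the highest mean counts were LDHB, a lactate dehydrogenase subunit (665 ± 82.7, 605 ± 85.7 and 607 ± 55 CPM in shCtrl, sh#1 and sh#2), MDH1, the cytosolic malate dehydrogenase (122 ± 16.8, 132 ± 18.8 and 121 ± 16.7), GPX1, a glutathione peroxidase (118 ± 17.4, 111 ± 29.8 and 111 ± 18.5) and AMD1, an enzyme of polyamine synthesis (106 ± 9.02, 92.2 ± 17.9 and 96.9 ± 6.34). Their groups overlapped in tumors and none was called. VEGFA, the angiogenic growth factor, had 33.7, 42.2, 70.7, 45.4 and 49 CPM in shCtrl, 105, 85.9, 52, 69.6 and 73.7 in sh#1 and 65.4, 146, 105, 58.7 and 74.5 in sh#2. Tumors of the groups overlapped, and the log2 fold change was 0.65 in sh#1 (SE 0.26, q = 0.315) and 0.93 in sh#2 (SE 0.25, q = 0.0777).

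Cultured cells gave a second measurement of 8 of these 9 genes. No other member was found there by its symbol in the tumor counts, and later names were not searched. With q below 0.05, 4 of the 8 were called in sh#1, 6 in sh#2 and 3 between the hairpins, where 22.4%, 38.3% and 24.7% of all 9859 genes tested were. DESeq2 called fewer of the 8 in sh#1 and between the hairpins. AMD1 fell from 120 ± 7.16 CPM (n = 3) to 53.3 ± 4.6 in sh#1 and 27.7 ± 0.592 in sh#2 (log2 fold changes -1.18 and -2.12, q = 7.73e-14 and 1.43e-21). VEGFA rose from 46.5 ± 3.55 to 126 ± 2.63 and 138 ± 11.8 (1.43 and 1.56, q = 2.3e-17 and 4.41e-19). SACM1L, a phosphoinositide phosphatase, fell from 38 ± 3.77 to 26.5 ± 0.949 and 18.3 ± 0.317 (-0.52 and -1.05, q = 0.00664 and 5.86e-07). Of the 92 parent genes listed in cultured cells 87 were tested, with 39 higher and 9 lower in sh#1, 60 higher and 8 lower in sh#2, and 5 higher and 60 lower in sh#1 against sh#2.

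The mouse counts of the same tumors and mixes gave another set of pseudogenes, 65 of 1301 rows with a mean of at least 10 counts. None was called in any comparison, with 1669 mouse genes tested and 0%, 0.0599% and 0% of them called in sh#1, in sh#2 and between the hairpins. Leaving out 1 tumor gave up to 1 call in sh#2 and up to 4 between the hairpins, both without sh#1 tumor 1. At an unadjusted p below 0.05 edgeR gave 0, 11 and 10 of the 65, and DESeq2 called 0 with 0, 8 and 10 at that level. The edgeR counts were 0%, 16.9% and 15.4% of the 65, where 8.57%, 4.49% and 9.65% of all mouse genes tested were at that level. Mouse totals of 94406 to 220238 counts per tumor were lower than the human ones. Counts of these 65 were 8641 to 30543 for every 1000000 mouse counts and 2914 to 3707 for every 1000000 human counts, the narrower range.

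**Figure D5:**
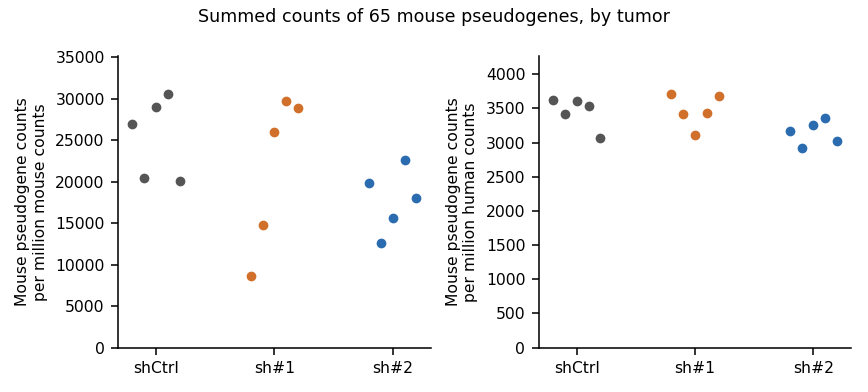
Summed counts of the 65 mouse pseudogenes in each tumor, for every 1000000 mouse counts (left) and human counts (right), 1 point per tumor by group. The first spans 8641 to 30543 and the second 2914 to 3707.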

How the data were processed

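Per the labels and the study's methods, xenograft tumor RNA was sequenced as single reads of 75 bases, trimmed with Trim Galore and mapped to hg38 with HISAT2. The authors deposited counts per gene, in a human and a mouse table for the tumors and a human table for cultured cells. The counting tool, the annotation version and the separation of human from mouse reads are not given in the sources used here. No column of sample values was left unused, and 13 genes with blank cells in the cultured table were left out.

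Counts were fitted with edgeR 4.0.16 in R 4.3.3 (TMM factors, filterByExpr, robust quasi-likelihood fit of the 3 groups, Benjamini-Hochberg adjustment over all genes tested). The limit was q below 0.1 in tumors and 0.05 in cultured cells. CPM are counts scaled to 1000000 human counts with TMM factors, and the SE is the absolute log2 fold change over the root of F. DESeq2 1.42.0 was an alternative. In data simulated for sh#1 against shCtrl on 9026 genes, 89.9% of 99 genes changed 2-fold and 100% of 100 changed 4-fold were recovered, and 10.4% of calls were false.

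Parents came from the symbol or, with blastn 2.17.0, from the GENCODE v44 protein-coding transcript with at least 85% identity over at least 50% of the member. Sequences and coordinates are from GENCODE v44 on hg38. All 153 members were found there, and the copies could differ in the annotation behind the counts.

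The members and lists were chosen with earlier results of these data known. By rule, members named were the 5 largest rises and 5 largest falls in each tumor comparison among those called with groups that do not overlap, the mitochondrial copies, the 5 ribosomal protein copies and 5 others with the highest mean count, and the parents of these, 35 members in all. RPL36A copy AC116533.1, RPL13AP20, RPL21P16, RPL10P16, RPL7AP6, AC008038.1, YBX1P6, EIF5P1, VEGFA, SACM1L and the members listed as called were named after their values were seen. Equal replicate numbers do not pair the tumors, and no 2 tumors of a group agreed within sampling noise (lowest chi-square per degree of freedom 1.81 over 30 pairs). Some genes that the rule names, with their copies, are not reported here.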

Additional observations from a re-analysis of the deposited data

Results flagged for a closer look

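Among 114 groups of 5 tumors, of which chance flags about 1 in 20, the following held a tumor far from the other 4. sh#1 tumor 1, the tumor with the lowest human total and the highest mouse share, was the highest of its group for MTCO1P12 (874 CPM, the others 270 to 307) and the lowest for MTND6P3 (77.7 CPM, the others 165 to 191). MTCYBP35 had 1.01 CPM in sh#1 tumor 5, from 1 count, and 0 in the other 4. BX679664.3 was highest in sh#2 tumor 4 (36.3 CPM, the others 21.3 to 23), MTND5P11 in sh#2 tumor 2 (10.7 CPM, the others 1.42 to 3.83), MTCO2P2 in sh#2 tumor 5 (474 CPM, the others 356 to 369) and AMD1 in sh#2 tumor 3 (108 CPM, the others 93.6 to 95).

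For some genes every tumor of a hairpin lay on one side of the shCtrl mean and every cultured library of that hairpin on the other, a difference that was not tested, between tables made separately. On the log2 fold change scale, RPL36A was at -2.56 in sh#1 tumors and 0.27 in sh#1 cultured cells, and at -3.0 and 0.61 in sh#2. SACM1L, in sh#1, was at 0.24 in tumors and -0.52 in cultured cells. Of the other parent genes in sh#1, RPLP0 was at -0.19 and 0.13, and RPS2 at -0.15 and 0.14. In sh#2, RPL13A was at -0.17 in tumors and 0.75 in cultured cells, RPL21 at -0.20 and 0.71, RPS15 at -0.18 and 0.34, RPS18 at -0.19 and 0.49, RPS2 at -0.17 and 0.49, and RPS26 at -0.32 and 0.55. The comparison covered 24 parents of named members.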

How the results depend on the processing

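The members called, 34 in sh#1, 39 in sh#2 and 24 between the hairpins, were 32, 40 and 18 with DESeq2, 35, 41 and 24 with upper-quartile factors, 35, 43 and 25 with no filter, and 32, 37 and 24 with the mouse to human ratio as a covariate. They were 13, 15 and 5 with at least 10 counts in every tumor, a filter that removes copies near 0 in a group. They were 14, 18 and 12 when the 87 members with a parent by symbol were summed with that parent. The 47 members with a parent by sequence stayed unsummed in that fit. Among members whose mean reached 10 counts in each group, an alternative chosen after seeing the data, they were 17, 21 and 10. Leaving out each tumor in turn gave 29 to 37, 34 to 45 and 17 to 25. With the replicate block they were 32, 41 and 23. The block stands here only as a check, since 2 of 15 same-numbered pairs had a correlation over 0.1 (-0.1 to 0.13) and 4 of 15 tumors correlated best with their own number. In cultured cells 0 of 9 pairs did (-0.01 to 0.06), and the replicate block gave 4, 6 and 3 members as without it, while DESeq2 gave 2 in sh#1 and 1 between the hairpins, and leaving out a library 3 to 4, 4 to 6 and 2 to 3. Mouse pseudogenes called were 0 in each comparison with the replicate block, 1 in sh#2 with no filter, and 0 to 0, 0 to 1 and 0 to 4 with a tumor left out, both highest values without sh#1 tumor 1. Parent families called, an alternative chosen after seeing the data, were 2 to 5 in sh#1, 0 to 13 in sh#2 and 3 to 10 between the hairpins with a tumor left out, with the highest values without shCtrl tumor 5, and 11 between the hairpins with DESeq2. The cause was not tested in these cases.

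For the named members, 2275 of 2342 fold changes under an alternative kept direction and side of the limit, 15 were gained as calls, 14 lost and 38 changed sign, 0 of them among called values. MTCO1P12 in sh#1 was called with DESeq2 (-1.13), upper-quartile factors (-1.20), the replicate block (-1.27) and the covariate (-1.47). Those with a sign change all lay near 0, and leaving out a tumor gave, in sh#1 against sh#2, -0.34 to 0.63 for AC026403.1, -0.10 to 0.04 for AMD1, -0.02 to 0.16 for GPX1, -0.06 to 0.07 for LDHB, -0.04 to 0.12 for MTCO2P2, -0.02 to 0.27 for MTND1P23, -0.15 to 0.03 for RPL10P3 and -0.01 to 0.09 for RPL13AP25. In sh#1 against shCtrl it gave -0.15 to 0.03 for AC107956.1, -0.11 to 0.01 for AP001324.1, -0.12 to 0.06 for GPX1 and -0.14 to 0.12 for TMSB4XP4, and in sh#2 -0.06 to 0.06 for MDH1. TMSB4XP4 was also at -0.01 with no filter and with the replicate block and at -0.00 with at least 10 counts in every tumor, and LDHB was at -0.00 with the block and -0.02 with the covariate. With 414849 to 1248977 human counts per tumor, differences in copies with few counts may have been missed. Detection by count level was not tested.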
